A study of Mus musculus with 6 samples.

Results

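Collagen genes were described in cultured mouse embryonic fibroblasts in which the ARF transcript was targeted by a hairpin. The members were all genes whose symbol in the platform annotation has the form Col, a number, a and a number, and where a gene had several probesets the brightest on average stood for it. This gave 44 collagen genes, on 46 probesets, among the 19288 genes that had a probeset with 1 gene symbol. They comprised 11 fibrillar collagens, 6 chains of type IV collagen of the basement membrane, 3 collagens of the basement membrane zone (Col7a1, Col15a1 and Col18a1), 9 FACIT collagens (fibril-associated collagens with interrupted triple helices) and 15 chains of other types. Col21a1, a FACIT collagen, was not analysed here.

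The samples were 3 arrays of cells with the hairpin construct shARF and 3 arrays of cells with the construct shSCR, the control here. A short hairpin RNA lowers the messenger RNA that it matches, and ARF is a tumour suppressor protein of the Cdkn2a locus. The series title calls the cells of both groups dp53R, and every sample title carries the word Ras. Both groups were grown in the same serum-containing medium and harvested with trypsin, per the labels' protocols. What dp53R stands for, the mouse strain, and whether the lines were clones or pools are not given in the sources used here. The labels call the replicates biological without naming cultures or animals, so p-values measure the spread between these arrays, which may be technical.

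The values are RMA signals on a linear scale, where RMA is the array normalization the authors used. Array medians were 41.97 to 42.86 in signal, and the detection level used here, the 25th percentile of each array, was 14.1 to 14.9. Cdkn2a, the targeted locus, measured 315, 254 and 286 in shARF cells and 535, 539 and 516 in shSCR cells, so that the groups were apart. It fell by 0.90 ± 0.086 on the log2 scale (SE; limma, adjusted p = 0.00459), and whether this probeset tells ARF from the other product of the locus was not analysed here. All 12 fibroblast markers on a fixed list, such as Pdgfra, Thy1 and Prrx1, lay above the detection level on at least 3 arrays. Of 7 macrophage markers 4 did not, among them Ptprc and Csf1r. Of 10 cartilage markers 3 did not, Matn1, Hapln1 and Cnmd. The arrays measured whole cultures, so fewer cells that make a collagen and less RNA per cell cannot be told apart.

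Collagens are secreted proteins whose chains wind into a triple helix with glycine at regular steps. Fibrillar collagens assemble into the banded fibrils of connective tissue, type IV chains form the sheet of basement membranes, and FACIT collagens sit on the surface of fibrils. Fibroblasts are a main source of fibrillar collagen, and the chains are hydroxylated and folded in the endoplasmic reticulum before they are secreted, trimmed and crosslinked.

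No collagen gene passed the test between shARF and shSCR cells. Groups were compared with limma on log2 signal, with p-values adjusted by the Benjamini-Hochberg method over 20310 probesets and a threshold of 0.05. Of the 44 collagen genes, all of them above the detection level on all 6 arrays, 0 were higher and 0 were lower in shARF cells, while 4.01% of the 15145 genes tested were called, 1.62% higher and 2.38% lower (limma). At an unadjusted p under 0.05, limma gave 8 collagens higher and 1 lower, against 8.76% of all genes higher and 13.4% lower. SAM, the test named in the series design text, called 1 collagen higher, Col18a1, and 0 lower. The arrays of the 2 groups did not overlap for 11 of the 44, or 25%, and for 28.6% of all genes tested. Of the 11, 10 were higher and 1 lower in shARF cells, against 12% and 16.6% of all genes tested. The difference was above 0 for 23 collagens and for 46.8% of all genes tested. The median difference (log2, shARF minus shSCR) was 0.01 over the collagens, in a range of -0.26 to 0.42, and -0.01 over all genes tested.

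The precision bounded how large the differences in signal could be between these arrays. The 95% interval of the difference lay within 2-fold in both directions for all 44 collagens, and within 1.5-fold for 40 of them. The 4 whose interval reached beyond 1.5-fold were Col3a1, Col18a1, Col10a1 and Col23a1. Intervals cover the spread between these arrays only. For 18 of the 44 collagens the mean log2 signal lay below the mean of the array medians, and whether such dim genes are expressed cannot be told from these values. Their intervals therefore do not bound a difference in RNA.

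**Figure D1:**
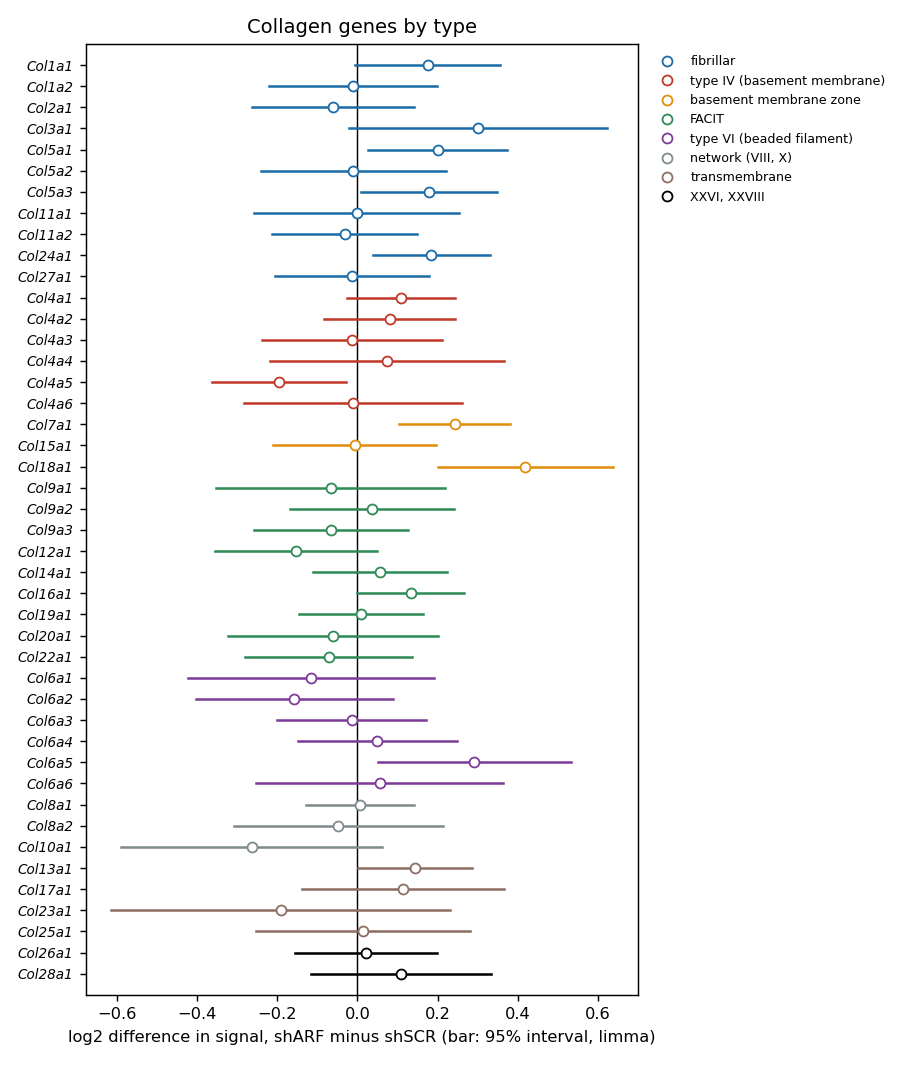
Log2 difference in signal, shARF minus shSCR (x axis), for each of the 44 collagen genes (y axis), coloured by type, with the 95% interval from limma as a bar (n = 3 arrays per group). All markers are open because none passed the adjusted threshold, and Col18a1 at 0.42 and Col10a1 at -0.26 mark the ends of the range.

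One control array stood apart for these genes. The shSCR replicate 2 array held the lowest value of its group for 28 of the 44 collagens (63.6%), against 30.8% of all genes tested. Its median deviation from each gene's mean over the 6 arrays was -0.11 on the log2 scale, and those of the other 5 arrays were 0.00 to 0.04. Its array median signal, 42.5, was within the range of the others. Without that array, a setting chosen after seeing the data, the unadjusted p was under 0.05 for 3 higher and 3 lower collagens. At the same setting 7.78% of all genes tested were higher and 10.5% lower. In the adjusted test 0 collagens passed. Values without this array are given below for many of the members, and a member without such a value may also have moved.

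**Figure D2:**
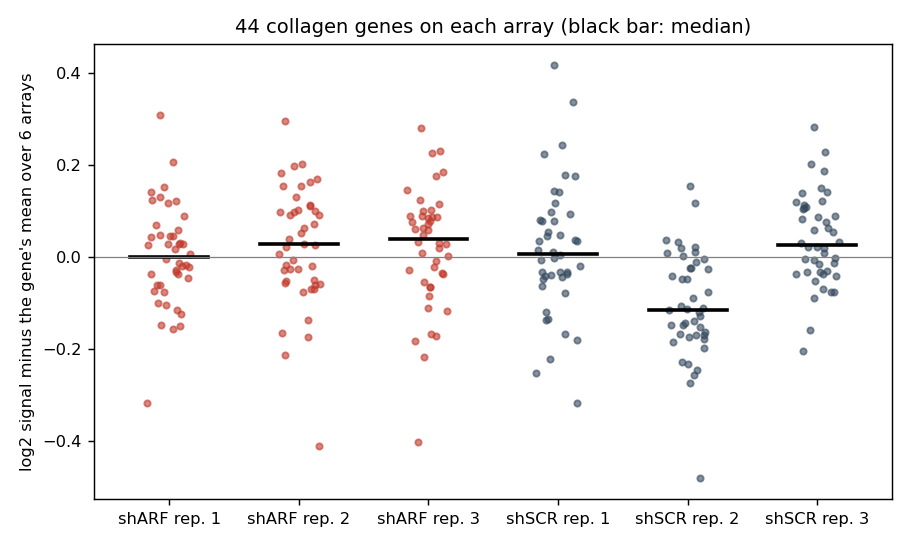
Log2 signal of each of the 44 collagen genes minus that gene's mean over the 6 arrays (y axis, log2 units), on each array (x axis, 3 shARF arrays left and 3 shSCR arrays right), with a black bar at the median. The median of shSCR replicate 2 lies at -0.11 and the other medians lie between 0.00 and 0.04.

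Among the fibrillar collagens, 5 of 11 had arrays that did not overlap between groups, all higher in shARF cells. Over all genes tested, 12% were apart and higher and 16.6% apart and lower. None of the 11 passed limma's test. Their unadjusted p was under 0.05 for 3 higher and 0 lower, against 8.76% and 13.4% of all genes tested. The 5 that were apart were Col1a1, Col3a1, Col5a1, Col5a3 and Col24a1, and the other 6 had differences of -0.06 to -0.0023. The median of the 11 differences was -0.0023. Col1a1, the major chain of type I collagen, measured 964, 1023 and 993 in shARF cells and 907, 797 and 939.9 in shSCR cells. Its difference was 0.18 ± 0.077 on the log2 scale (SE; limma, adjusted p = 0.257), with a 95% interval of -0.01 to 0.36. Every shARF array was above every shSCR array, and the difference was 0.11 without shSCR replicate 2.

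Col1a2, the partner chain in the type I trimer, measured 1702, 1970.2 and 1788 in shARF cells and 1816, 1679 and 2009.8 in shSCR cells. The groups overlapped fully, with a difference of -0.01 (interval -0.22 to 0.20), and -0.073 without shSCR replicate 2. Col5a1, a chain of type V collagen, which regulates the width of type I fibrils, gave 162, 155 and 156 in shARF cells and 143, 125 and 144 in shSCR cells. That was a difference of 0.20 ± 0.074 (SE; limma, adjusted p = 0.189), and 0.13 without shSCR replicate 2. Its partner Col5a2 gave 662, 761 and 707 in shARF cells and 752, 625 and 773 in shSCR cells, an overlap in both directions and a difference of -0.01 (interval -0.24 to 0.22), or -0.11 without that array.

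The ratio of partner chains within an array removes what both chains share on that array, shSCR replicate 2 included, though its level depends on the probes. The signal of Col1a1 over that of Col1a2 was 0.566, 0.519 and 0.556 in shARF cells and 0.499, 0.475 and 0.468 in shSCR cells, a change of 0.19 in the log2 ratio. The ratio of Col5a1 over Col5a2 was 0.245, 0.203 and 0.221 in shARF cells and 0.191, 0.200 and 0.186 in shSCR cells, a change of 0.21. In both pairs every shARF array lay above every shSCR array. Each gave p = 0.10 in an exact two-sided permutation test, the smallest that 3 against 3 arrays allow. Adjusted over the 6 partner pairs compared, each p was 0.30. Neither ratio therefore could pass, and the ratio shows only that the 2 probesets changed unequally on these arrays.

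Col3a1, the chain of type III collagen, which is deposited with type I in extensible tissues, had the largest difference of the fibrillar group. It measured 514, 506 and 466 in shARF cells, against 449, 319 and 452 in shSCR cells. The groups were apart and shSCR replicate 2 was the lowest array. The difference was 0.30 ± 0.138 (SE; limma, adjusted p = 0.271) with all arrays and 0.14 without that one. Col5a3, a further type V chain, differed by 0.18 (limma, adjusted p = 0.223) and Col24a1, a minor fibrillar collagen, by 0.18 (limma, adjusted p = 0.157). Col24a1 kept a difference of 0.19 without shSCR replicate 2. Col2a1, the fibrillar collagen of cartilage, differed by -0.06, Col11a1 by -0.0023 and Col11a2 by -0.03, the last pair being chains of type XI collagen, which is best known from cartilage fibrils. The Col11a1 difference was -0.10 without shSCR replicate 2. Col27a1, a cartilage fibrillar collagen, differed by -0.01.

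**Figure D3:**
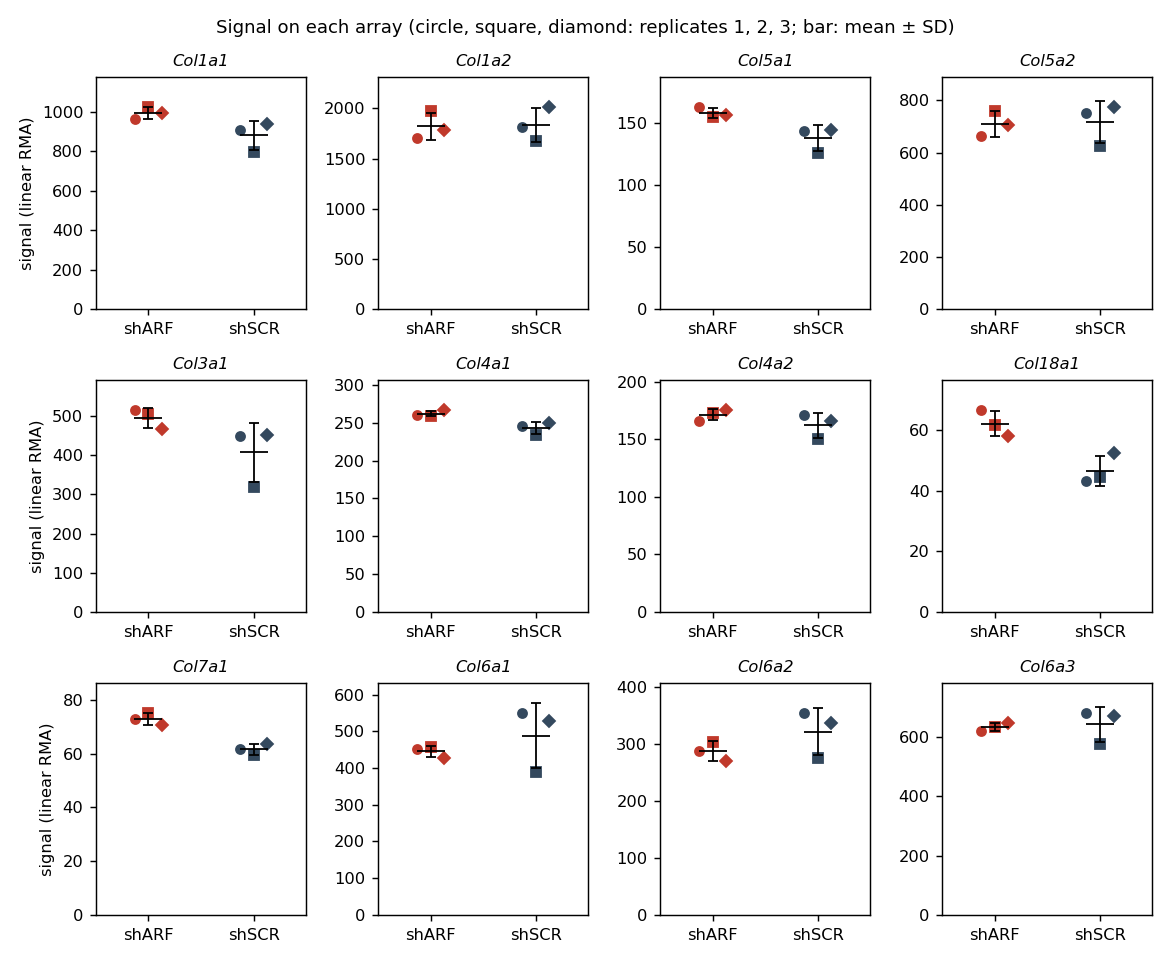
Linear RMA signal (y axis, from 0) of 12 collagen genes on each array, with shARF left and shSCR right, markers for replicates 1, 2 and 3 and bars for mean ± SD (n = 3 per group). Col1a1, Col5a1, Col3a1, Col4a1, Col18a1 and Col7a1 show no overlap between groups, while Col1a2, Col5a2, Col4a2, Col6a1, Col6a2 and Col6a3 overlap.

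Type IV collagen showed differences of both signs, and 0 of its 6 chains passed limma's test (unadjusted p under 0.05 for 0 higher and 1 lower). At that unadjusted p 8.76% of all genes tested were higher and 13.4% lower. The median log2 difference of the 6 chains was 0.03, in a range of -0.20 to 0.11. Col4a1 and Col4a2 make the common trimer of basement membranes and are transcribed away from each other. Their RefSeq windows on GRCm38.p6, each of 300 bases that run from before the start to just past it, share 78 bases at chr8:11312777-11312854. Col4a1 measured 261, 259 and 266 in shARF cells and 246, 235 and 250.2 in shSCR cells, a difference of 0.11 ± 0.057 (SE; limma, adjusted p = 0.341). Col4a2 measured 166, 173 and 175 in shARF cells and 171, 150.0 and 166 in shSCR cells, a difference of 0.08 ± 0.070 (SE; limma, adjusted p = 0.551). Without shSCR replicate 2 the Col4a2 difference was 0.025 and that of Col4a1 0.081. The groups were narrowly apart for Col4a1 and overlapped for Col4a2. The log2 ratio of the pair changed by 0.03 (exact two-sided permutation test, p = 0.60, and 0.60 adjusted over the 6 pairs).

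Col4a5, an X-linked chain found in the basement membranes of the kidney and other organs, was the 1 collagen whose arrays were apart and lower in shARF cells. It measured 77.3, 75.4 and 67.5 in shARF cells and 81.4, 85.2 and 85.3 in shSCR cells. The groups were apart, with a difference of -0.20 ± 0.071 (SE; limma, adjusted p = 0.183), and -0.19 without shSCR replicate 2. Col4a6, its neighbour on the X chromosome, differed by -0.01, with an interval of -0.28 to 0.26. Col4a3 and Col4a4, the neighbouring pair on chromosome 1, differed by -0.01 and 0.07. Without shSCR replicate 2 the differences of Col4a6 and Col4a4 were -0.10 and 0.17. The signals of these last 3 chains were between 18.3 and 30.1 on all arrays, close to the detection level.

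The collagens of the basement membrane zone held the 2 smallest p-values of the whole family. Col18a1 encodes a collagen with heparan sulfate chains, whose C-terminal fragment is endostatin. It measured 66.6, 61.8 and 58.2 in shARF cells and 43.1, 44.4 and 52.3 in shSCR cells. Every shARF array was higher, with a difference of 0.42 ± 0.093 (SE), or 1.34-fold, and a 95% interval of 0.20 to 0.64 on the log2 scale. It did not pass (limma, adjusted p = 0.0599). The call was on the other side of the threshold in 4 of 16 alternatives: with an intensity trend in limma (adjusted p = 0.037), among the brighter probesets (limma, adjusted p = 0.0303), on log2 of signal plus 16 (limma, adjusted p = 0.035) and in SAM (estimated false discovery rate 0.0287). Over all 16 alternatives it was between 0.0287 and 0.166. Without shSCR replicate 2 the difference was 0.39.

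Col7a1, the collagen of the anchoring fibrils that tie skin epithelium to the dermis, measured 72.9, 75.04 and 70.8 in shARF cells and 61.7, 59.6 and 63.6 in shSCR cells. The groups were apart and the spread within each was small, with SDs of 2.14 in shARF cells and 1.98 in shSCR cells (n = 3 each). The difference of 0.24 ± 0.059 (SE) did not pass (limma, adjusted p = 0.0776), and it passed among the brighter probesets (limma, adjusted p = 0.0342). Its adjusted p lay between 0.0342 and 0.202 over the alternatives. Without shSCR replicate 2 the Col7a1 difference was 0.22. Col15a1, a relative of Col18a1, measured 36.3 ± 3.85 in shARF cells and 36.3 ± 0.679 in shSCR cells (SD, n = 3 each), a difference of -0.01 with an interval of -0.21 to 0.20. Of 8 epithelial markers 7 were tested and Krt18 alone was called higher (limma, adjusted p = 0.037). Their summed signal was 379 to 519.7 on shARF arrays and 275 to 313 on shSCR arrays. Most of that sum came from 2 keratins: Krt18 averaged 250.2 in shARF cells and 129 in shSCR cells, and Krt8 averaged 96.5 in shARF cells and 57.1 in shSCR cells. Of the 7 tested markers, 6 differences were above 0 and 1 below. Krt5, Krt14, Epcam and Cldn7 differed by 0.27, 0.19, 0.14 and 0.06, and Cldn4 by -0.23. Cdh1 did not exceed the detection level on 3 arrays. The part of these markers in the Col7a1 and Col18a1 values was not tested.

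The promoters of Col18a1, Col7a1 and Col3a1 are shown because these genes had the smallest adjusted p-values of the family or the largest fibrillar difference. They are the 250 bases before the RefSeq start on GRCm38.p6, written 5′ to 3′ on the gene's strand, and Col18a1 has 2 annotated starts. Capitals mark the GC box GGGCGG, the CCAAT box CCAAT and the TATA box TATAAA, each on either strand. The AP-1 motif TGANTCA and the core of the interferon-stimulated response element were searched in the same way and are not in these windows. No motif overlaps another in them.
Col18a1, upstream start, chr10:77166531-77166780, minus strand: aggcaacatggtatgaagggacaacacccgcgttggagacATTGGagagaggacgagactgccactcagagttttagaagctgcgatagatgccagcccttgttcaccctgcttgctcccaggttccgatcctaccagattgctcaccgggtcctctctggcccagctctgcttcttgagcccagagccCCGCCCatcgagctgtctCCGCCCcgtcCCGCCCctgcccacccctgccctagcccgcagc
Col18a1, downstream start, chr10:77113706-77113955, minus strand: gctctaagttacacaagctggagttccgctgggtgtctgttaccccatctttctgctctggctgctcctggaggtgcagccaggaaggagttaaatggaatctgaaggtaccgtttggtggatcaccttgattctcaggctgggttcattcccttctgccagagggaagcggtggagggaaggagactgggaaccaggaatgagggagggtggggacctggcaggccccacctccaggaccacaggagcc
Col7a1, chr9:108953336-108953585, plus strand: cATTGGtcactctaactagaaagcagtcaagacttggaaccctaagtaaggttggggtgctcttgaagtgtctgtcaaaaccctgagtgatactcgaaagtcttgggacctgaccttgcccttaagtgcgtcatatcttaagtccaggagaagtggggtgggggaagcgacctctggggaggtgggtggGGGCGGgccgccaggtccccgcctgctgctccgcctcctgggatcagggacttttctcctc
Col3a1, chr1:45311288-45311537, plus strand: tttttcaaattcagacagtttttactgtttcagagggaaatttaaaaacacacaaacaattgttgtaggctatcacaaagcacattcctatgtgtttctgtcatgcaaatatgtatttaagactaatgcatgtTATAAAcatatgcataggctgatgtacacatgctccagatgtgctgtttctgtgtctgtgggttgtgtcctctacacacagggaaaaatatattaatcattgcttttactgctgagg

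The upstream Col18a1 window held 3 GC boxes and 1 CCAAT box, and the downstream window held 0 of the motifs searched. The Col7a1 window held 1 GC box and 1 CCAAT box, and the Col3a1 window 1 TATA box. RefSeq windows were matched for 35 of the 44 collagens, 38 windows in all. Unmatched were Col1a1, Col2a1, Col4a3, Col5a2, Col9a3, Col12a1, Col14a1, Col22a1 and Col26a1. A GC box was in 22 of the 38 collagen windows (57.9%) and in 32.7% of 32841 windows of all genes. A CCAAT box was in 34.2% against 33.9%, and a TATA box in 13.2% against 12.4%. The AP-1 motif was in 1 collagen window, that of Col6a1, and in 6.75% of all windows. The core of the interferon-stimulated response element was in 0 collagen windows and in 2.98% of all windows. These are counts of letters anywhere in a window, with no rule on the distance from the start, and no binding was measured.

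Of the 9 FACIT collagens measured 0 passed limma's test. Their unadjusted p was under 0.05 for 1 higher and 0 lower, against 8.76% and 13.4% of all genes tested. The median FACIT difference was -0.06 (range -0.15 to 0.13). It lay between -0.073 and 0.012 when 1 array was left out, turning positive without shSCR replicate 1 (0.0058) or 3 (0.012). Col12a1, which decorates type I fibrils and is made by fibroblasts under load, measured 1183, 1285 and 1263 in shARF cells and 1482, 1232 and 1447 in shSCR cells. The groups overlapped through shSCR replicate 2. The difference was -0.15 ± 0.086 (SE; limma, adjusted p = 0.36), and -0.24 without that array (limma, adjusted p = 0.192). Col16a1 was the 1 FACIT gene whose arrays were apart, with 72.8, 73.7 and 75.1 in shARF cells and 68.9, 65.2 and 68.0 in shSCR cells. Its difference was 0.13 ± 0.057 (SE; limma, adjusted p = 0.243).

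Col14a1, another collagen bound to interstitial fibrils, differed by 0.06, with signals of 27.5 to 32.0 on all arrays, and by 0.0056 without shSCR replicate 2. Col9a1, Col9a2 and Col9a3, the chains of the cartilage collagen that coats type II fibrils, differed by -0.07, 0.04 and -0.07. Col19a1, Col20a1 and Col22a1 differed by 0.01, -0.06 and -0.07. Without shSCR replicate 2 the differences of Col20a1, Col22a1 and Col9a2 were -0.16, -0.14 and -0.038. The cartilage markers measured beside the type II, IX, X and XI genes had 0 of 7 tested members called, and their summed signal was 415 to 472 on shARF arrays and 388 to 445 on shSCR arrays. Most of that sum came from Sox9, which averaged 268 in shARF cells and 245 in shSCR cells. Of the 7 tested markers, 2 differences were above 0 and 5 below.

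Type VI collagen forms beaded microfilaments around cells. Its 3 major chains did not pass the test. Col6a1 gave 452, 457 and 427 in shARF cells and 549, 388 and 528 in shSCR cells. Col6a2 gave 288, 305 and 270.1 in shARF cells and 355, 276 and 337 in shSCR cells. Col6a3 gave 622, 635 and 646 in shARF cells and 680.4, 575 and 672 in shSCR cells. In all 3 genes shSCR replicates 1 and 3 lay above every shARF array, and shSCR replicate 2 lay below all of them or, for Col6a2, among them. The differences of -0.12, -0.16 and -0.01 became -0.27, -0.27 and -0.09 without shSCR replicate 2 (limma, adjusted p = 0.141, 0.186 and 0.539). The log2 ratios of the 3 pairs of these chains changed by 0.04, -0.10 and -0.14 (exact two-sided permutation tests, p = 0.50, 0.30 and 0.20; 0.60, 0.45 and 0.40 adjusted over the 6 pairs).

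The minor type VI chain Col6a5 differed by 0.29 ± 0.103 (SE; limma, adjusted p = 0.172) and its groups overlapped, with 27.2, 34.5 and 31.9 in shARF cells and 27.4, 23.6 and 25.1 in shSCR cells. Without shSCR replicate 2 the Col6a5 difference was 0.24. A further Col6a5 probeset reached the detection level on 0 arrays. Col6a4 and Col6a6 differed by 0.05 and 0.06. The network collagen Col8a1, found under endothelium and in vessel walls, measured 785 ± 17.9 in shARF cells and 782 ± 21.0 in shSCR cells (SD, n = 3 each), with an interval of -0.13 to 0.14. Its partner Col8a2 differed by -0.05 (-0.15 without shSCR replicate 2), and Col10a1, the collagen of hypertrophic cartilage, by -0.26 ± 0.139 (SE; limma, adjusted p = 0.334). The Col10a1 difference was -0.34 without that array.

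Of the 4 transmembrane collagens 0 passed limma's test (unadjusted p under 0.05 for 1 higher and 0 lower). At that unadjusted p 8.76% of all genes tested were higher and 13.4% lower. Col13a1, a cell adhesion collagen, measured 38.2, 40.2 and 39.7 in shARF cells and 34.1, 36.4 and 36.5 in shSCR cells. Its arrays were apart with a difference of 0.14 ± 0.061 (SE; limma, adjusted p = 0.238). Col17a1, the hemidesmosome collagen of epithelium, differed by 0.11, Col23a1 by -0.19 and Col25a1 by 0.01. The differences of Col17a1 and Col23a1 were 0.068 and -0.32 without shSCR replicate 2. Col26a1 differed by 0.02 and Col28a1 by 0.11.

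The genes that act on collagen were read from 7 lists with 78 members, of which 67 were tested. Of these, 3 were higher, 2 were lower and 62 did not pass (limma), where 1.62% of all genes tested were higher and 2.38% lower. The median difference was 0.06, and -0.01 over all genes tested. Of 16 tested genes of hydroxylation, glycosylation and folding, 0 passed (limma). Their unadjusted p was under 0.05 for 3 higher and 1 lower, against 8.76% and 13.4% of all genes tested. Serpinh1, the collagen chaperone HSP47, measured 1017, 1071 and 1011 in shARF cells and 974, 909 and 857 in shSCR cells. The groups were apart, with a difference of 0.18 ± 0.069 (SE; limma, adjusted p = 0.203). The prolyl hydroxylase subunits P4ha1 and P4hb differed by 0.19 and 0.09, and the lysyl hydroxylases Plod1 and Plod2 by 0.27 and 0.10 (limma, adjusted p = 0.114 and 0.493). Plod2 differed by 0.029 without shSCR replicate 2. Other members differed the other way: the prolyl hydroxylase subunit P4ha2 by -0.06, the lysyl hydroxylase Plod3 by -0.08 and Crtap, a partner of the prolyl 3-hydroxylase, by -0.15. Tmem38b, an ion channel of the endoplasmic reticulum, had the largest difference of the list, -0.47 (limma, adjusted p = 0.0947), and passed in SAM (estimated false discovery rate 0.0358) and with an intensity trend (limma, adjusted p = 0.0492).

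Neither the 9 tested genes of export from the endoplasmic reticulum nor the 7 of procollagen processing held any that passed limma's test. Their unadjusted p was under 0.05 for 2 higher and 1 lower among the export genes and for 1 higher and 1 lower among the processing genes. At that unadjusted p 8.76% of all genes tested were higher and 13.4% lower. SAM was counted over all 7 lists together, with 5 higher and 5 lower. Bmp1, the C-proteinase of fibrillar procollagens, differed by 0.02. Among 5 crosslinking genes 1 passed and was lower, against 2.38% of all genes tested called lower (limma). For these 5 the unadjusted p was under 0.05 for 0 higher and 3 lower, against 8.76% and 13.4% of all genes tested. Loxl3, a lysyl oxidase family member, measured 494, 510.3 and 490.5 in shARF cells and 626, 591 and 688 in shSCR cells. It fell by 0.35 ± 0.072 on the log2 scale (SE; limma, adjusted p = 0.0494). Leaving out any 1 of the 6 arrays ended the call (limma, adjusted p = 0.0687 to 0.141). Lox, the main lysyl oxidase, differed by -0.21 (limma, adjusted p = 0.24). Tgm2, a transglutaminase that links matrix proteins, had the largest difference of the list, -0.50 ± 0.111 (SE; limma, adjusted p = 0.0609), with its arrays apart. It passed in 4 of 16 alternatives, with adjusted p between 0.0197 and 0.173 over all of them.

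Of 15 fibril-associated and organising genes, 3 rose and 0 fell in shARF cells, against 1.62% and 2.38% of all genes tested (limma). Their unadjusted p was under 0.05 for 6 higher and 2 lower, against 8.76% and 13.4% of all genes tested. Dpt, dermatopontin, which binds decorin and collagen fibrils, measured 399, 559 and 445 in shARF cells and 194, 187 and 225 in shSCR cells. It rose by 1.20 ± 0.133 (SE; limma, adjusted p = 0.00731), and the call held without any 1 array (highest adjusted p in limma 0.0397). Lum, the collagen-binding proteoglycan lumican, rose by 1.28, a call lost without any 1 array other than shARF replicate 2 (highest adjusted p in limma 0.0903). Postn, periostin, a matrix protein that binds collagen, rose by 0.48, a call lost without any 1 of the 6 arrays (limma, adjusted p = 0.0579 to 0.0746). All 3 differences exceeded that of any collagen. Dcn, the proteoglycan decorin, differed by 0.71 (limma, adjusted p = 0.0625) and passed in 6 of 16 alternatives. Fmod, the proteoglycan fibromodulin, differed by -0.74 (limma, adjusted p = 0.165) with overlapping arrays and passed in 2, one of them SAM (estimated false discovery rate 0.0451). Lum was also the 1 called gene among the 12 fibroblast markers, of which 5 differences were above 0 and 7 below. Thy1 and Pdgfra, among the 7, differed by -0.38 and -0.22. The summed signal of 7 smooth muscle markers was 7014 to 7650.4 on shARF arrays and 9552 to 9951 on shSCR arrays. Most of that sum came from Acta2, which averaged 4209 in shARF cells and 5101 in shSCR cells, and Tagln, with 1893 and 2508. Of these 7 markers 3 were called lower, against 2.38% of all genes tested (limma), and 0 were below the detection filter. The 3 were Cnn1, Tagln and Acta2, with differences of -1.25, -0.41 and -0.28 (limma, adjusted p = 0.00121, 0.0271 and 0.0491). Cnn1 averaged 682 in shARF cells and 1628 in shSCR cells. Lmod1 and Myh11 differed by -0.66 and -0.37 and did not pass. Smtn and Des differed by 0.06 and 0.03. The part of these markers in these results was not tested.

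Collagen receptors showed no call, and 1 of 6 tested collagen-degrading proteases fell, against 2.38% of all genes tested (limma). Of 9 tested receptor and uptake genes 0 passed (limma). Their unadjusted p was under 0.05 for 0 higher and 1 lower, against 8.76% and 13.4% of all genes tested. The integrin chain Itga11 differed by 0.09, the collagen receptor kinase Ddr2 by 0.01 and the endocytic receptor Mrc2 by 0.11. The differences of Itga11 and Mrc2 were -0.0054 and 0.058 without shSCR replicate 2. Ctsk, cathepsin K, a lysosomal protease that cleaves the collagen triple helix, measured 118, 105 and 112 in shARF cells and 211, 176 and 195 in shSCR cells. It fell by 0.80 ± 0.084 (SE; limma, adjusted p = 0.00638), and this call held without any 1 array (highest adjusted p in limma 0.0358). The groups were far apart. The collagenase Mmp13 differed by 0.58 (limma, adjusted p = 0.106), the gelatinase Mmp2 by 0.31 (limma, adjusted p = 0.0987) and the membrane-bound Mmp14 by 0.15 (limma, adjusted p = 0.262), and these 3 did not pass. Mmp13 passed in 3 of 16 alternatives and Mmp2 in 1. For the 6 proteases the unadjusted p was under 0.05 for 2 higher and 2 lower, against 8.76% and 13.4% of all genes tested (limma). Of the 2 lower, Ctsk was called and Fap differed by -0.25 (limma, adjusted p = 0.222).

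**Figure D4:**
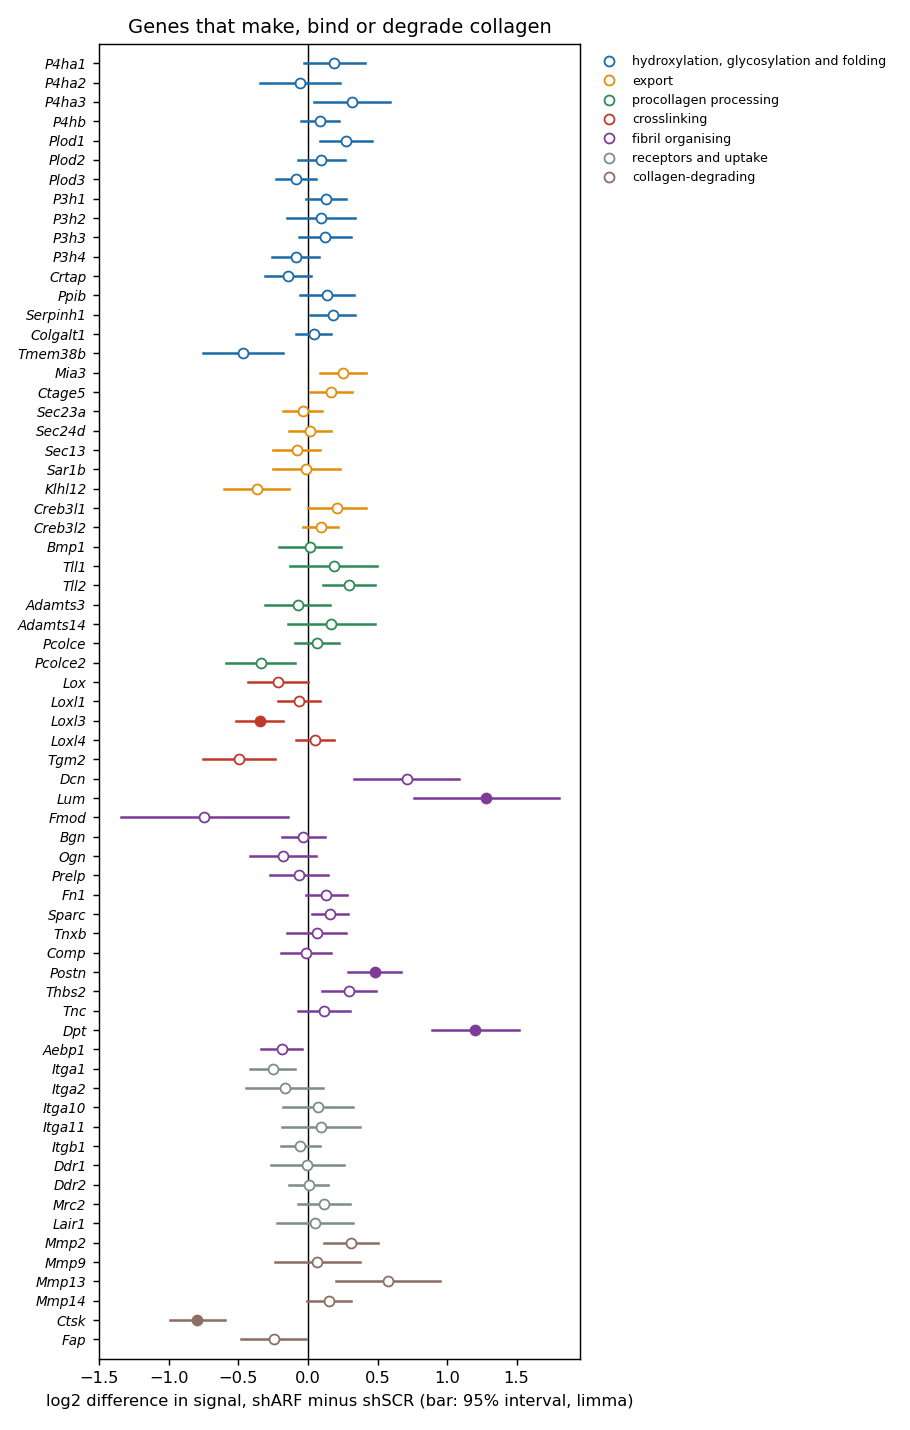
Log2 difference in signal, shARF minus shSCR (x axis), of the 67 tested genes that make, bind or degrade collagen (y axis), coloured by list, with the 95% interval from limma as a bar (n = 3 arrays per group). Filled markers passed the adjusted threshold: Lum, Postn and Dpt lie right of 0, and Loxl3 and Ctsk lie left of it.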

How the data were processed

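Gene expression was measured on 6 Affymetrix gene-level arrays, 3 shARF and 3 shSCR. The authors deposited linear intensities from RMA in Affymetrix Expression Console, per the submitters' processing notes, restricted to core probesets per the design text. Tool versions and the genome build are not given in the sources used here. RMA equalizes the distribution of signal between arrays, which hides any shift shared by nearly all genes. The values, 26851 probesets per array, were turned to log2 here. Probesets were named from the platform annotation, in which 21056 carry 1 symbol, 1450 several and 4345 none.

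A probeset was tested if it exceeded the 25th percentile of the array on at least 3 of 6 arrays, which left 20310 probesets and 15145 genes. The submitters' presence rule, based on negative controls, was not used here. The 2 groups were fitted without a block by lmFit and eBayes (limma 3.58.1, R 4.3.3, two-sided tests). This procedure was run on simulated data whose changes were larger than any collagen difference here. That run therefore does not gauge how well differences of the size seen in collagens are found. Log ratios of partner chains were compared with exact permutation tests. The number of arrays limits the precision. Sequences are from RefSeq (GRCm38.p6).

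The collagen genes and all lists were chosen with earlier results of these data known. The named genes are all collagens. Values per array are given for collagens that passed, that were apart by at least 0.3, or that are partner chains, with others added after their values were seen. From the other lists the called genes and 9 others listed in the naming rule (Serpinh1, P4ha1, P4hb, Plod2, Lox, Bmp1, Itga11, Ddr2 and Mrc2) are named. Plod1, Plod3, P4ha2, Crtap, Tmem38b, Tgm2, Dcn, Fmod, Mmp2, Mmp13, Mmp14 and Fap were added after their values were seen. Same-numbered arrays did not deviate together over all probesets, with correlations of 0.078, 0.052 and 6.2e-04 for replicates 1, 2 and 3. Those of arrays with unlike numbers were -0.14 to 0.094.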

Additional observations from a re-analysis of the deposited data

How the results depend on the processing

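The direction of 21 of the 44 collagen differences was the same under all 16 alternatives, and 2 collagens, Col18a1 and Col7a1, passed in at least 1. No collagen turned sign with all 6 arrays. The other 23 differences turned sign when 1 array was left out, and their log2 differences then ranged from -0.10 to 0.068 for Col11a1, -0.091 to 0.029 for Col11a2, -0.066 to 0.083 for Col15a1, -0.024 to 0.049 for Col19a1, -0.073 to 0.057 for Col1a2, -0.16 to 0.037 for Col20a1, -0.14 to 0.012 for Col22a1, -0.096 to 0.10 for Col25a1, -0.036 to 0.084 for Col26a1, -0.093 to 0.040 for Col27a1, -0.13 to 0.010 for Col2a1, -0.12 to 0.060 for Col4a3, -0.024 to 0.17 for Col4a4, -0.10 to 0.092 for Col4a6, -0.11 to 0.048 for Col5a2, -0.092 to 0.029 for Col6a3, -0.029 to 0.10 for Col6a4, -0.056 to 0.21 for Col6a6, -0.013 to 0.026 for Col8a1, -0.15 to 0.023 for Col8a2, -0.17 to 0.075 for Col9a1, -0.038 to 0.10 for Col9a2 and -0.13 to 0.0058 for Col9a3. Those of the other genes that turned ranged from -0.061 to 0.089 for Bmp1, -0.022 to 0.027 for Ddr2 and -0.0054 to 0.19 for Itga11, and the changes in log2 ratio from -0.0047 to 0.056 for Col4a1/Col4a2 and -0.0073 to 0.070 for Col6a1/Col6a2.

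Leaving out 1 array gave 0 collagens called in all 6 cases. The number of genes called over all tested, 607, was 253, 330 and 244 without shARF replicates 1, 2 and 3 and 166, 306 and 150 without shSCR replicates 1, 2 and 3. The count of higher genes on the lists that make, bind or degrade collagen was 1 to 4, and that of lower genes was 1 in each case. The type medians ranged from -0.0044 to 0.081 for type IV, from 0.0024 to 0.068 for fibrillar, from -0.073 to 0.012 for FACIT, from -0.028 to 0.034 for other types and from 0.22 to 0.27 for basement membrane zone collagens.

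With all arrays, testing brighter probesets alone (above the 50th percentile) called 2 collagens higher and 996 genes, with medians of 0.081 for type IV, 0.33 for the basement membrane zone and -0.065 for other types, over fewer genes. An intensity trend called 1 collagen and 1239 genes, with 10 higher and 5 lower on the lists that act on collagen. SAM called 1 collagen and 997 genes, with 5 higher and 5 lower on those lists. Log2 of signal plus 16 called 1 collagen and 978 genes. With no filter 372 genes were called. The lower count on the lists was 1, not 2, with no filter, a robust prior or median centring, where Loxl3 was lost. The cause of these shifts was not tested. With the replicate number as a block, 0 collagens and 336 genes were called. With that block Dcn and Fmod passed (limma, adjusted p = 0.0372 and 0.018), and Loxl3 and Postn did not (limma, adjusted p = 0.106 and 0.0789). The labels do not say whether the numbers pair the arrays. The correlations above run over all probesets, so they cannot settle this for single genes. Depth has no counterpart here, and 18 collagens had a mean log2 signal below the mean of the array medians.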
